A study of Penicillium oxalicum with 6 samples.

Results

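In the filamentous fungus Penicillium oxalicum, 78 genes that the control strain already transcribed in mycelium stood at least 8-fold higher in a strain lacking the transcription factor gene POX09752. The 78 members were the gene IDs from POX00001 to POX09342 with a mean of at least 1 FPKM (fragments scaled to gene length and library total) over the Ku70 libraries and a MuPOX09752 mean at least 8 times the Ku70 mean, with POX06835 left out. They made up 0.951% of the 8206 IDs in this range with at least 1 FPKM in Ku70, out of 9834 IDs in the whole series. The members were chosen by their mean FPKM in both strains, so the difference between the strains is given for them as a description, and calls from the test across all genes are printed only beside their share of all genes.

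The strain MuPOX09752 is labelled a mutant of POX09752, and the series title calls the gene deleted. It was set against Ku70, labelled a mutant of that name and used here as the control. The Ku70 protein takes part in joining broken DNA ends, and its loss is widely used in fungi to make targeted gene replacement more efficient. Each strain had 3 libraries, numbered 1, 2 and 3 here for the letters F, S and T of the titles. All were labelled as mycelium from 1 g of hyphae kept for 24 h in liquid medium with 2% Avicel, a microcrystalline cellulose. The growth text of all 6 samples names spores of MuKu70, so whether the deletion was made in that background is not spelled out. Whether the libraries of a strain came from separate cultures or from 1 clone was not given.

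When a filamentous fungus meets a polymer such as cellulose, it secretes enzymes that release sugars from it, and transcription factors set how strongly the genes for these enzymes, for transporters and for other metabolic functions are transcribed. Such factors can raise or hold down transcription, directly or through other regulators, so that loss of a factor can change transcripts in either direction. The stated question of the series was what POX09752 does to the transcription of genes for cellulases and xylanases. None of the 9834 IDs matched a name in the reference gene table (0 matches), so the members are known here by ID only and what they encode is not given. The label mycelium could not be checked against marker genes for the same reason. In RNA from whole cultures, more cells with a transcript and more transcript per cell cannot be told apart.

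Total expected counts ran from 13099454 to 13522926 in the MuPOX09752 libraries and from 13467192 to 14115694 in the Ku70 libraries. POX09752 itself had 0 counts in each of the 3 MuPOX09752 libraries and 1375 to 1663 counts in the Ku70 libraries, so no MuPOX09752 library went against its label for this gene. The Ku70 label was not checked, since no ID could be matched to a Ku70 gene. MuPOX09752 replicate 3 stood apart: the chi-square per degree of freedom against counting error was 74 and 79.2 for its pairs with replicates 2 and 1, 11.5 between those 2, and 6.81 to 10.7 among the Ku70 libraries. Ratios of named members that move by more than 1.5 times without this library are given below with and without it.

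The members were mostly weakly transcribed in Ku70 and ranged over 3 orders of magnitude in MuPOX09752. Their mean level in MuPOX09752 ran from 10.2 to 13827 FPKM with a median of 77.5 FPKM, against 1.11 to 1409 FPKM with a median of 4.52 FPKM in Ku70. The median level over the 8807 genes tested was 29.5 FPKM in MuPOX09752 and 28.1 FPKM in Ku70. Thus 65 of the 78 members lay above the median level of tested genes in MuPOX09752, and 70 lay below it in Ku70. The ratio of the strain means had a median of 13.1 among the members and of 1.03 over all genes tested. It was between 8 and 10 for 21 members, from 10 to 16 for 28, from 16 to 32 for 18, and at least 32 for 11. By transcript level in Ku70, 9 members had 1 to 2 FPKM, 33 had 2 to 5, 16 had 5 to 10, 17 had 10 to 50, and 3 had more than 50.

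**Figure D1:**
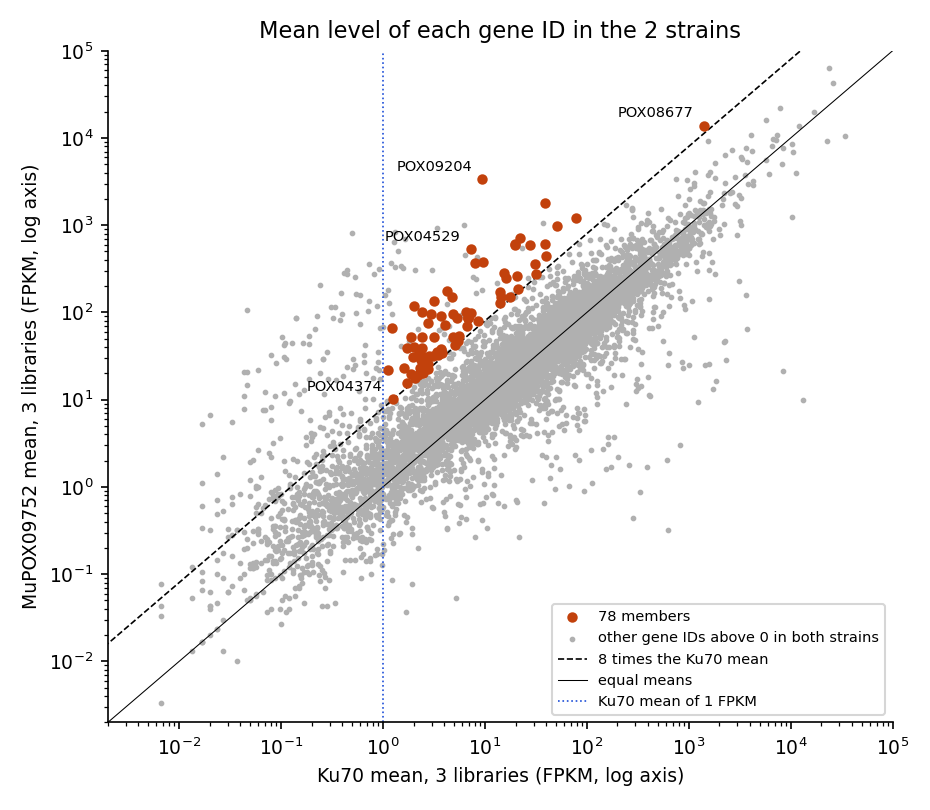
Mean FPKM over 3 libraries in MuPOX09752 (vertical, log axis) against Ku70 (horizontal, log axis) for each gene ID above 0 in both strains; the dashed line marks 8 times the Ku70 mean and the dotted line 1 FPKM in Ku70. The 78 members, in orange, lie above the dashed line from 1.11 to 1409 FPKM in Ku70; grey points above it and right of the dotted line are POX06835 and IDs above POX09342, which the rule leaves out.

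Together the members took 2.38% to 2.62% of all counts in the MuPOX09752 libraries and 0.155% to 0.199% in the Ku70 libraries. POX08677 alone held 0.854% to 1.1% of the counts in MuPOX09752 and 0.0829% to 0.119% in Ku70. Without POX08677 and POX09204, the remaining members held 1.34% to 1.44% in MuPOX09752, against 0.0714% to 0.0802% in Ku70. By mean FPKM, 4 members were among the 100 highest of all IDs in MuPOX09752 and 1 was among the 100 highest in Ku70. Among the 1000 highest, the members numbered 22 in MuPOX09752 and 1 in Ku70.

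The member with the highest transcript level was POX08677, which was also abundant in the control. Its level was 14990, 14810 and 11681 FPKM in the MuPOX09752 libraries, against 1627, 1136 and 1466 FPKM in the Ku70 libraries. All 3 MuPOX09752 libraries were far above all 3 Ku70 libraries, and POX08677 ranked 6 of all IDs in MuPOX09752 and 96 in Ku70. The ratio of the means was 9.81, and the difference of mean log2 FPKM was 3.30 ± 0.19 (SE, n = 3 each).

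Among the members, POX09204 had by far the highest ratio. It stood at 3985, 4095 and 2095 FPKM in the MuPOX09752 libraries, against 10.8, 6.72 and 10.8 FPKM in the Ku70 libraries. Its MuPOX09752 mean of 3391 ± 1124 FPKM was 359 times the Ku70 mean of 9.44 ± 2.35 FPKM (SD, n = 3 each), a log2 difference of 8.46 ± 0.39 (SE). The transcript was abundant in MuPOX09752, at rank 37, and weak in Ku70, at rank 6775 of 9834 IDs. The Ku70 libraries held 59, 35 and 58 counts of it. Replicate 3 was the lowest of the MuPOX09752 libraries and still 222 times the Ku70 mean. Without replicate 3 the ratio of POX09204 was 428. The next highest ratio among the members was 72.4.

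That ratio belonged to POX04529, with 413, 398 and 778 FPKM in the MuPOX09752 libraries, against 7.84, 7.17 and 6.94 FPKM in the Ku70 libraries. Here replicate 3 was the highest MuPOX09752 library, and the Ku70 libraries were close together. Without replicate 3 its ratio was 55.4, below those of POX00860 (69.6), POX04079 (60.4) and POX05818 (59.3). POX04079 combined a high level with a high ratio, at 1818, 2915 and 593 FPKM in MuPOX09752, against 27.7, 51.3 and 38.6 FPKM in Ku70. Its MuPOX09752 libraries differed almost 5-fold among themselves, the lowest being replicate 3. The ratio of its means was 45.3, and 60.4 without that library.

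2 members with high ratios came from low control levels. POX00860 had 152, 128 and 77.8 FPKM in MuPOX09752, against 1.54, 2.19 and 2.30 FPKM in Ku70, a ratio of 59.3. POX05818 had 74.9, 72.2 and 50.4 FPKM in MuPOX09752, against 0.91, 1.53 and 1.28 FPKM in Ku70, a ratio of 53.1. For both, the lowest MuPOX09752 library was over 30 times the highest Ku70 library (33.8 and 33.0 times).

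POX02291, POX05016 and POX06064 complete the 8 highest ratios, at 45.6, 43.2 and 41.8. POX02291 had 346, 378 and 374 FPKM in MuPOX09752, against 8.47, 4.84 and 10.7 FPKM in Ku70, so its libraries agreed closely in the deletion strain and spread more in the control. POX06064 had 95.5, 115 and 95 FPKM in MuPOX09752, against 2.69, 2.82 and 1.79 FPKM in Ku70. POX05016 was less even, with 51, 82 and 274 FPKM in MuPOX09752, against 3.41, 3.64 and 2.37 FPKM in Ku70. Without replicate 3 the ratio of POX05016 was 21.2.

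Other abundant members had intermediate control levels. POX02520 had 823, 1022 and 1097 FPKM in MuPOX09752, against 61.4, 44.1 and 46.8 FPKM in Ku70. POX02407 had 764, 782 and 568 FPKM in MuPOX09752, against 21.3, 24.2 and 20.7 FPKM in Ku70. POX03007 had 540, 719 and 587 FPKM in MuPOX09752, against 19.2, 18.1 and 21.5 FPKM in Ku70. In each, the MuPOX09752 libraries lay within a factor of 1.5 of each other, and the log2 differences were 4.28 ± 0.19, 4.98 ± 0.16 and 4.97 ± 0.14 (SE, n = 3 each).

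**Figure D2:**
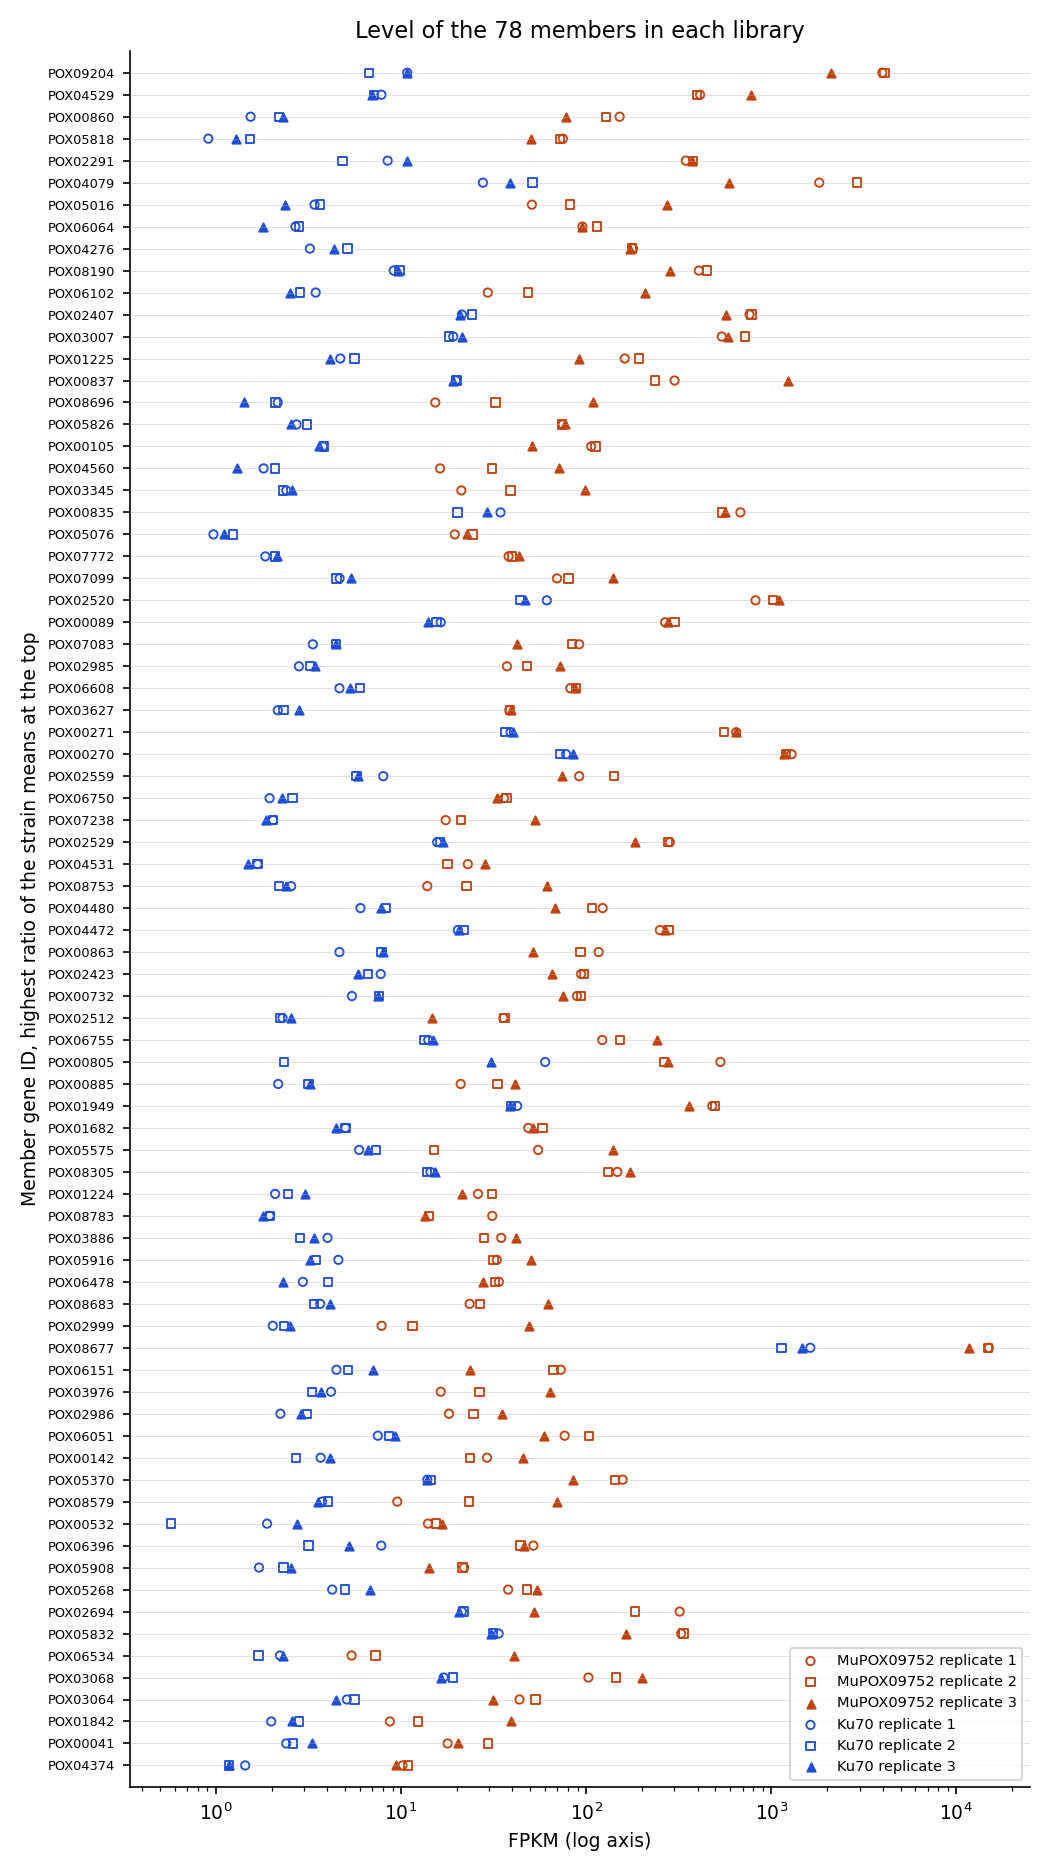
FPKM (log axis) of each of the 78 members in the 3 MuPOX09752 libraries (orange) and the 3 Ku70 libraries (blue), with the highest ratio of strain means, 359 for POX09204, at the top and the lowest, 8.04 for POX04374, at the bottom. Filled triangles mark replicate 3 of each strain. The strains do not overlap in any row, and the orange symbols of many rows are more spread than the blue ones.

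The lowest MuPOX09752 library exceeded the highest Ku70 library in all 78 members. That pattern held for 35.5% of the 8807 genes tested. All 78 were also called higher in MuPOX09752 (adjusted p under 0.05 by the quasi-likelihood test of edgeR), where 29.8% of the genes tested were called higher and 60.1% were called in either direction. These counts follow from the rule and carry no separate weight. In 43 members the lowest MuPOX09752 library was at least 8 times the highest Ku70 library. Any gene meeting this stricter requirement also meets the ratio limit, so this count is tied to the rule as well.

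Library by library, the ratio to the Ku70 mean was at least 8 for 66, 69 and 66 members in MuPOX09752 replicates 1, 2 and 3, and in every one of the 3 libraries for 53 members. The lowest ratios of a single MuPOX09752 library to the Ku70 mean were 2.53, 2.28 and 2.47. The median SE of the log2 difference was 0.29 over the members, from 0.05 to 1.46, and 18 members had an SE above 0.5.

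Spread between libraries of a strain was not used by the rule, except through the mean. The coefficient of variation (SD over mean) of FPKM over the MuPOX09752 libraries had a median of 28% among the members, against 10.9% over all genes tested and 9.18% over 3040 other genes with a MuPOX09752 mean between the members' quartiles, 35 and 183 FPKM. Over the Ku70 libraries the median was 13.5% among the members, 7.04% over all genes tested and 10.1% over 1668 other genes of similar control level. Without replicate 3 the median over the MuPOX09752 libraries was 12.2% among the members and 5.58% over all genes tested. Counting error alone corresponds to a median of 3.08% for the members in MuPOX09752 and 12.7% in Ku70, where their counts were lower. A mean can pass the limit because of 1 high library, so part of this spread is tied to the choice of the members. The spread was larger in MuPOX09752 than in Ku70 for 55 of 78 members, and for 65.7% of all genes tested.

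The most even members in MuPOX09752 hardly differed between libraries. POX03627 had 38.5, 38.8 and 39.5 FPKM in MuPOX09752, against 2.16, 2.32 and 2.82 FPKM in Ku70. POX04276 had 179, 178 and 173 FPKM in MuPOX09752, against 3.22, 5.15 and 4.32 FPKM in Ku70. Both had a coefficient of variation in MuPOX09752 of at most 2.02%, with ratios of 16 and 41.7. POX05826, at 74.8, 73.8 and 76.9 FPKM in MuPOX09752, against 2.73, 3.11 and 2.53 FPKM in Ku70, and POX06608, at 82.2, 88.1 and 87 FPKM in MuPOX09752, against 4.65, 6.03 and 5.30 FPKM in Ku70, were nearly as even.

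The least even members shared a pattern in which replicate 3 stood far above the other MuPOX09752 libraries. POX06534 had 5.41, 7.27 and 40.7 FPKM in MuPOX09752, against 2.22, 1.70 and 2.30 FPKM in Ku70. POX06102 had 29.4, 48.4 and 208 FPKM in MuPOX09752, against 3.46, 2.85 and 2.51 FPKM in Ku70. Their ratios of 8.59 and 32.4 became 3.06 and 13.2 without replicate 3. POX02999, with 7.86, 11.5 and 49 FPKM in MuPOX09752, against 2.03, 2.33 and 2.52 FPKM in Ku70, and POX08696, with 15.3, 32.4 and 109 FPKM in MuPOX09752, against 2.16, 2.1 and 1.41 FPKM in Ku70, followed the same pattern, and their ratios of 9.94 and 27.6 became 4.23 and 12.6 without it. In all 4, even the lowest MuPOX09752 library was above the highest Ku70 library, by 2.35 to 8.51 times.

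In 15 members replicate 3 was at least 2-fold above the mean of replicates 1 and 2 (19.2% of members, against 2.34% of the 8788 tested genes above 0 in all MuPOX09752 libraries). Their median levels were 16.4, 26.5 and 69.4 FPKM in MuPOX09752 replicates 1, 2 and 3, against 2.55, 2.82 and 2.52 FPKM in the Ku70 libraries. In another 8 members replicate 3 was at least 2-fold below the mean of the other 2 (10.3%, against 1.75% of genes tested), with median levels of 112, 103 and 51.5 FPKM in MuPOX09752, against 4.57, 6.52 and 7.54 FPKM in Ku70. The other 55 members lay between. By the same measure, replicate 1 was at least 2-fold below the mean of the other 2 libraries in 13 members (16.7%, against 2.8% of genes tested) and above in 2 (2.56%, against 0.455%). Replicate 2 was below in 5 members (6.41%, against 0.99%) and above in 1 (1.28%, against 0.785%). A high replicate 3 also lowers the other libraries in this measure, so these counts are not independent. All 13 members with a low replicate 1 and all 5 with a low replicate 2 were among the 15 with a high replicate 3. POX02694 (replicate 1 above) and POX04079 (replicate 2 above) were among the 8 with a low replicate 3. POX08783 (replicate 1 above) was in neither group. These counts thus mostly repeat the deviation of replicate 3. The median over the 78 members of replicate 3 over the mean of replicates 1 and 2 was 0.973.

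**Figure D3:**
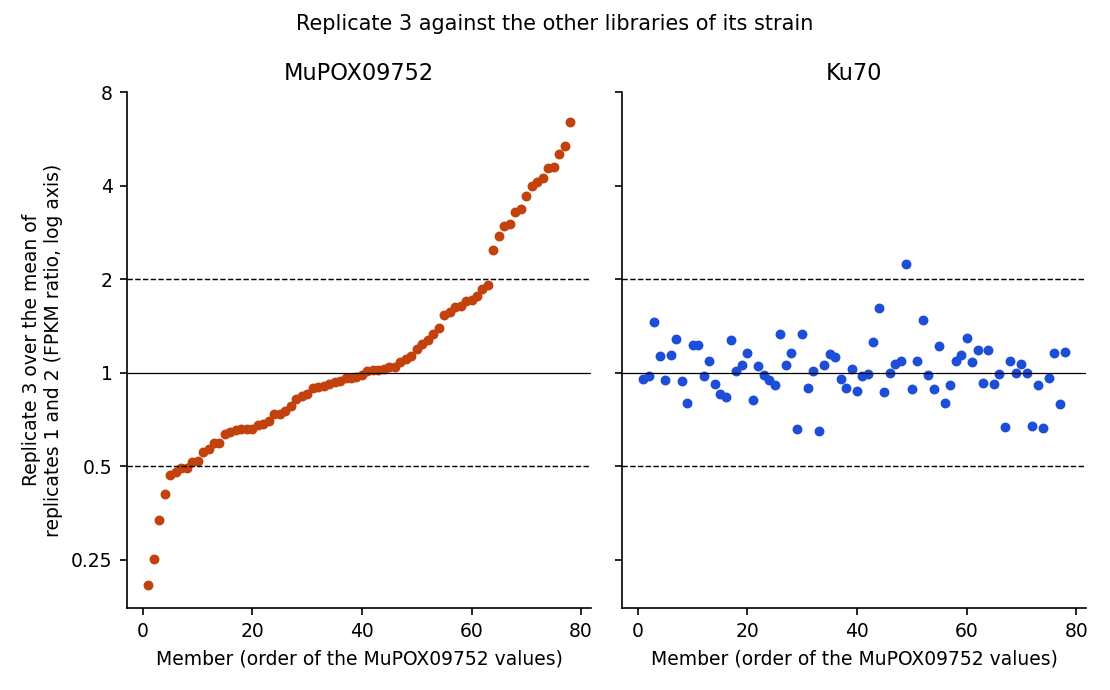
FPKM of replicate 3 over the mean of replicates 1 and 2 (log axis) for each of the 78 members, in MuPOX09752 on the left and Ku70 on the right, with members in the same order in both panels; dashed lines mark 2-fold above and below. The MuPOX09752 values run from 0.208 to 6.42 with 15 points at 2 or more and 8 at 0.5 or less, while the Ku70 values run from 0.65 to 2.23.

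Whether a gene counted as a member depended on replicate 3 for some of these genes. Of the 15 members highest in replicate 3, 8 had a ratio under 8 without it, with ratios over all 15 from 3.06 to 21.2. In Ku70 the same 15 members showed no such deviation, with replicate 3 at 0.662 to 1.18 times the mean of replicates 1 and 2. Leaving out MuPOX09752 replicate 3 gave 76 genes by the same rule, 67 of them among the 78.

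3 members had a Ku70 library more than 2-fold from the mean of the other 2, and they were singled out after their values were seen. POX00805 had 531, 264 and 278 FPKM in MuPOX09752, against 60.1, 2.34 and 30.7 FPKM in Ku70. Its 34 counts in Ku70 replicate 2, beside 913 and 460 in replicates 1 and 3, put it at 0.0516 of the mean of the other 2, the lowest such value of all 8703 tested genes above 0 in every Ku70 library. Its log2 difference, 4.38, had the largest SE of the members, 1.46. Its ratio of 11.5 was 7.88 without Ku70 replicate 2 and 21.7 without Ku70 replicate 1, and its log2 difference was 2.98 without Ku70 replicate 2. POX00532 had 14, 15.4 and 16.7 FPKM in MuPOX09752, against 1.89, 0.57 and 2.74 FPKM in Ku70, where it rested on 19 counts in all, the fewest of any member. For POX06396, at 51.9, 44.3 and 46.1 FPKM in MuPOX09752, the Ku70 libraries had 7.82, 3.16 and 5.24 FPKM. Without Ku70 replicate 2 the ratios of POX00532 and POX06396 were 6.63 and 7.26, so all 3 genes met the limit of 8 only with that library.

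The ratio was also read in libraries left out when the rule was applied. The rule was applied to 2 replicates of each strain, and the genes it chose were looked up in the third MuPOX09752 library and the third Ku70 library, a check chosen after the data were seen. With replicate 1 left out, 88 genes were chosen, and their median ratio was 10.2 in the libraries left out, against 12.4 in those used. With replicate 2 left out, 81 genes had a median ratio of 12.8 in the libraries left out, against 12.7. With replicate 3 left out, 78 genes had a median of 12.7, against 12.8. Gene by gene, 56 of 88, 52 of 81 and 47 of 78 had a lower ratio in the libraries left out than in those that chose them. In the libraries left out, 60, 62 and 55 of these genes were again at least 8-fold higher, which is 68.2%, 76.5% and 70.5%. None was lower in MuPOX09752 than in Ku70 there: the lowest ratios were 1.75, 2.07 and 2.55, and the highest, always of POX09204, were 369, 609 and 194. Of the genes chosen, 74, 72 and 69 were among the 78 members. The rule itself was set with earlier results of these data known, so the libraries left out were not independent of it. Whether they came from separate cultures was not given. These values are therefore descriptions and not a separate test.

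**Figure D4:**
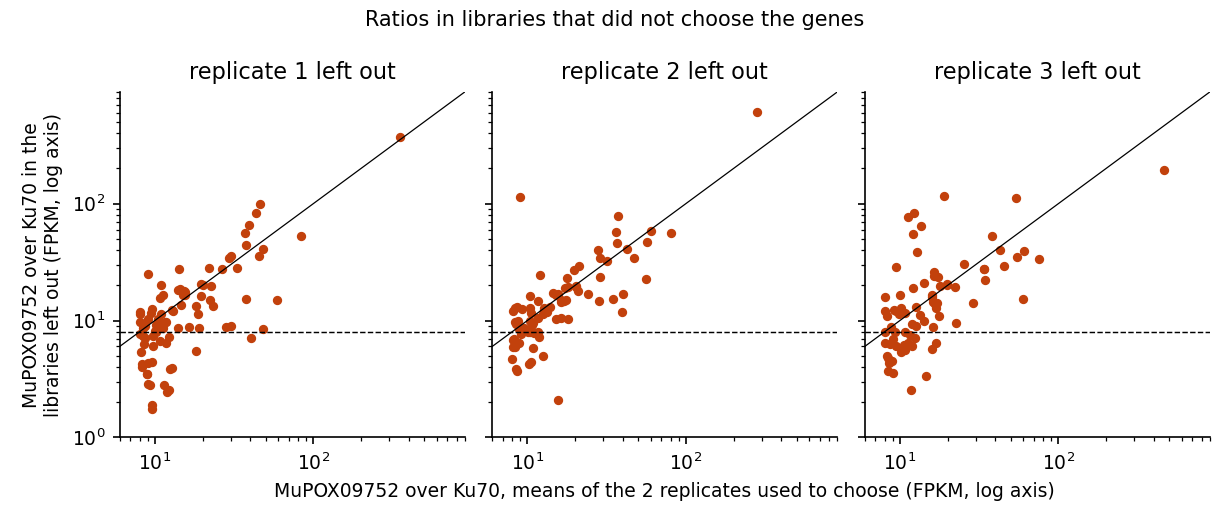
Ratio of MuPOX09752 to Ku70 FPKM in the 2 libraries left out (vertical, log axis) against the ratio of the means over the libraries that chose the genes (horizontal, log axis), 1 panel for each replicate number left out; the solid line marks equality and the dashed line a ratio of 8. Of the 88, 81 and 78 genes chosen, 60, 62 and 55 lie on or above the dashed line, and the lowest values are 1.75, 2.07 and 2.55.

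Members lay in all parts of the ID range, with 14 of 877 expressed IDs in the first 1000 numbers and 4 of 877 in the block from 7001 to 8000. IDs next to each other in number were both members in 3 pairs. Whether the numbers follow gene order in the genome was not tested. POX00270 and POX00271 were nearly parallel: the first had 1289, 1200 and 1169 FPKM in MuPOX09752, against 77.9, 72.4 and 84.6 FPKM in Ku70, and the second had 647, 555 and 647 FPKM in MuPOX09752, against 39.1, 36.6 and 40.4 FPKM in Ku70. Their ratios were 15.6 and 15.9. The next 2 IDs had far lower levels and were also called higher by edgeR. POX00273 had 5.81, 5.39 and 4 FPKM in MuPOX09752, against 0.5, 0.35 and 0.34 FPKM in Ku70. For POX00272, with 8.2, 1.86 and 5.7 FPKM in MuPOX09752, against 1.15, 2.11 and 1.46 FPKM in Ku70, the strains overlapped.

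POX01224 and POX01225 differed more. POX01224 had 26.1, 30.9 and 21.5 FPKM in MuPOX09752, against 2.09, 2.45 and 3.02 FPKM in Ku70, and POX01225 had 162, 193 and 91.8 FPKM in MuPOX09752, against 4.70, 5.60 and 4.11 FPKM in Ku70. Their ratios were 10.4 and 31, and replicate 3 was the lowest MuPOX09752 library for both. In the third pair it was the highest for both: POX02985 had 37.4, 47.9 and 72.6 FPKM in MuPOX09752, against 2.81, 3.22 and 3.45 FPKM in Ku70, and POX02986 had 18.2, 24.6 and 35.1 FPKM in MuPOX09752, against 2.23, 3.10 and 2.90 FPKM in Ku70. The 5 IDs on either side of POX01224 and POX01225, and of POX02985 and POX02986, all had ratios under 3.5.

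A further 2 pairs had 1 ID between the members. POX00836, between POX00835 (597 ± 74.6 FPKM in MuPOX09752, against 27.9 ± 7.19 in Ku70, SD, n = 3 each) and POX00837, was itself 5.13 times higher, with 299 ± 20.8 FPKM in MuPOX09752 and 58.4 ± 5.43 FPKM in Ku70. POX00837 had 301, 236 and 1232 FPKM in MuPOX09752, against 19.8, 19.9 and 19.1 FPKM in Ku70, so its replicate 3 was far above the others while that of POX00836 was not (323, 287 and 288 FPKM). Without replicate 3 the ratio of POX00837 was 13.7, in place of 30.1. POX04530, between POX04529 and POX04531, had 6.63 FPKM in MuPOX09752, against 3.15 FPKM in Ku70, a ratio of 2.1, where the members beside it had ratios of 72.4 and 14.3.

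**Figure D5:**
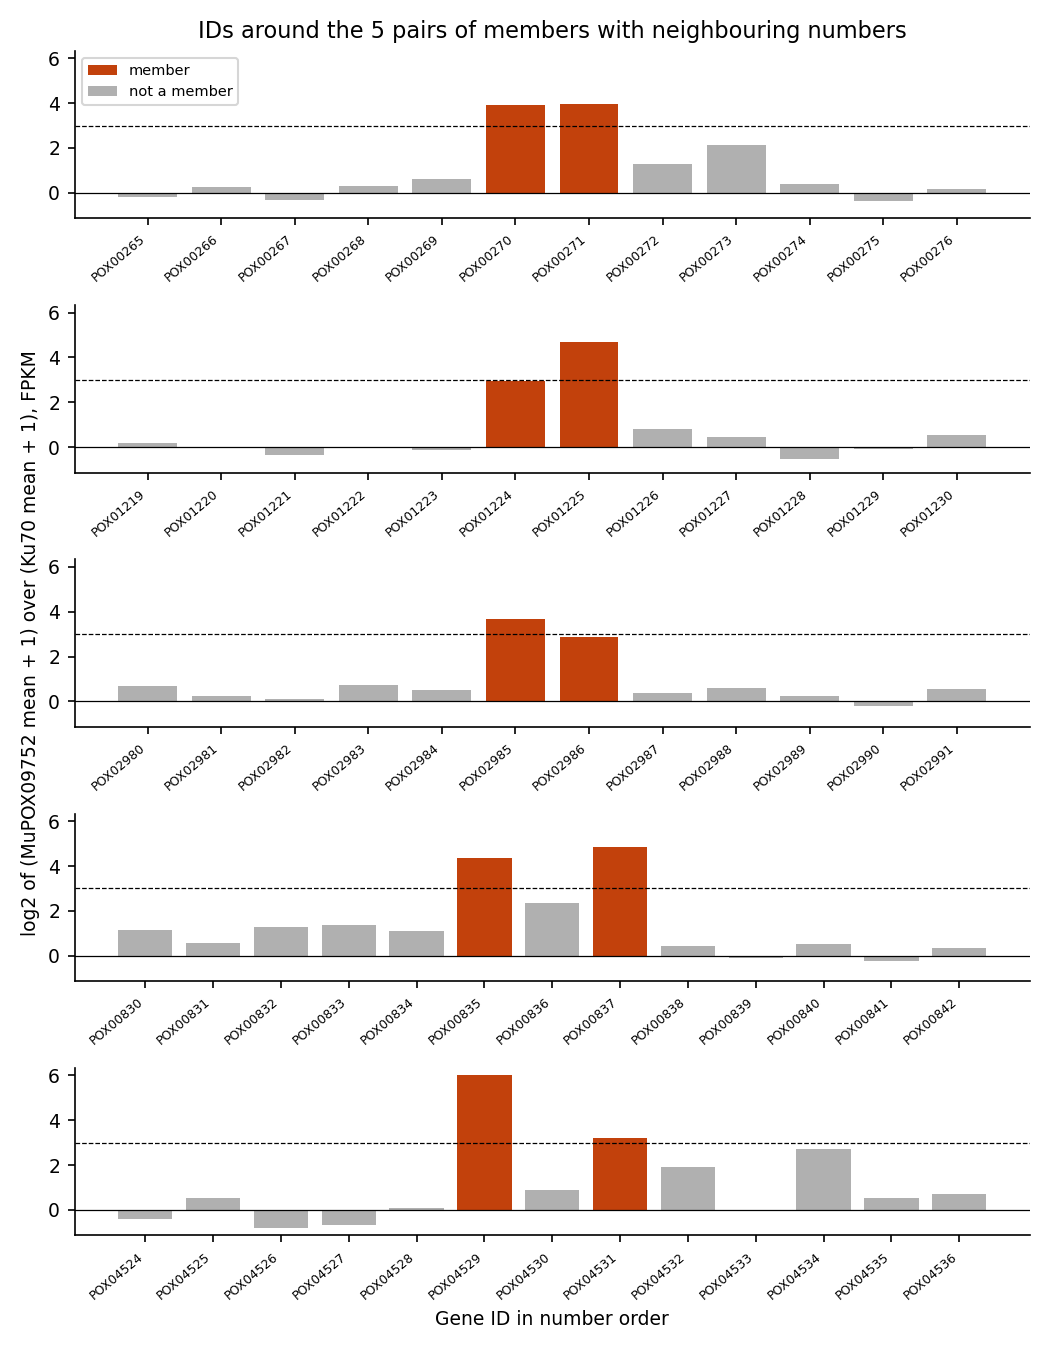
log2 of (MuPOX09752 mean + 1) over (Ku70 mean + 1), in FPKM, for gene IDs in number order around the 5 pairs of members that are consecutive or have 1 ID between them, with 5 IDs on each side; bars start at 0, members are orange and the dashed line marks 8-fold on this scale. Around POX01224 and POX02985 no neighbouring bar exceeds 0.81, while POX00836 reaches 2.34, POX04532 reaches 1.90 and POX04534 reaches 2.73.

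Across all members, 135 tested IDs were adjacent in number, with an ID beside 2 members (POX00836 and POX04530) counted once for each. Of these, 48 (35.6%) were called higher by edgeR and at least 2-fold higher in MuPOX09752. Over all genes tested in the same ID range the share of adjacent IDs was 10.5%. Leaving out the adjacent IDs that are members themselves gave 42 of 129, or 32.6%. Adjacent IDs called at least 2-fold lower numbered 8 (5.93%), beside 8.03% over the range. Such a neighbour with higher transcripts was found for 40 of the 78 members. This count is per member and cannot be set beside the 10.5%, which is per adjacent ID. Its counterpart over all genes was not computed. The comparison is that of the rule, so these shares are descriptions.

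Some neighbouring IDs also had the replicate 3 pattern within the deletion strain. Of 25 tested IDs adjacent to the 15 members highest in replicate 3, 5 (20%) had replicate 3 at least 2-fold above the mean of replicates 1 and 2. The same held for 1 of 110 IDs adjacent to the other members, counted in the same way (0.909%), and for 1.87% over the range. The 5 were POX03344, POX04561, POX05576, POX08682 and POX08684, named after their values were seen. POX08682 and POX08684 lie on either side of the same member, POX08683. Levels were low for POX05576, with 1.67, 1.22 and 3.91 FPKM in MuPOX09752, against 0.25, 0.41 and 0.4 FPKM in Ku70. They were also low for POX08682, with 1.02, 1.54 and 6.47 FPKM in MuPOX09752, against 0.18, 0.22 and 0.13 FPKM in Ku70. POX04561 had 7.81, 13.7 and 30.9 FPKM in MuPOX09752, against 2.76, 1.98 and 1.92 FPKM in Ku70, beside POX04560 with 16.3, 31 and 71.1 FPKM in MuPOX09752, against 1.81, 2.09 and 1.30 FPKM in Ku70. The ratio of POX04560 was 22.8, and 13.6 without replicate 3. POX08684 was listed at 0 in all Ku70 libraries and had 3.35, 4.78 and 25.1 FPKM in MuPOX09752, next to POX08683 with 23.5, 26.6 and 62.2 FPKM in MuPOX09752, against 3.66, 3.38 and 4.16 FPKM in Ku70. POX03344 went the other way between strains, with 5.27, 7.79 and 17.5 FPKM in MuPOX09752, against 51, 56.9 and 51.6 FPKM in Ku70.

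The effective length (count over FPKM and library total) had a median of 1215 bases and quartiles of 734 and 1634 bases among the members, beside a median of 1281 bases and quartiles of 781 and 1919 bases over 8355 tested genes with enough counts, whose lengths ran from 62 to 24536 bases. The shortest was POX00270 with 234 bases and the longest POX02985 with 3457 bases, so both ends belonged to pairs of adjacent IDs. A count that was not whole, which the estimation gives when reads are divided between genes, occurred in any library for 2 members (2.56%), POX04374 and POX08190, and for 11.9% of genes tested.

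Near the limit on the ratio, POX04374, POX00041 and POX01842 were just inside, at 8.04, 8.13 and 8.15. POX04374 had 10.2, 10.9 and 9.39 FPKM in MuPOX09752, against 1.44, 1.18 and 1.17 FPKM in Ku70. POX00041 had 17.9, 29.6 and 20.2 FPKM in MuPOX09752, against 2.40, 2.60 and 3.32 FPKM in Ku70, and POX01842 had 8.71, 12.4 and 39.1 FPKM in MuPOX09752, against 1.99, 2.82 and 2.57 FPKM in Ku70. Without MuPOX09752 replicate 3 the ratio of POX01842 was 4.28. Just outside were POX00769, POX04561 and POX03296, at 7.94, 7.86 and 7.80, and 51 IDs of the range with at least 1 FPKM in Ku70 had ratios from 6 to 8. POX06835, left out by name, had a ratio of 9.37, with 274, 235 and 232 FPKM in MuPOX09752, against 26.1, 27.2 and 25.8 FPKM in Ku70.

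Near the limit on the control level, POX05076, POX05818 and POX04374 were just inside, with Ku70 means of 1.11, 1.24 and 1.26 FPKM. POX05076 had 19.5, 24.4 and 22.8 FPKM in MuPOX09752, against 0.97, 1.24 and 1.11 FPKM in Ku70, a ratio of 20.1. POX08602, POX08694 and POX06063 were just outside, with Ku70 means of 0.947, 0.943 and 0.94 FPKM. Of these, POX08694 had 10.1, 29.9 and 162 FPKM in MuPOX09752, against 1.00, 0.93 and 0.90 FPKM in Ku70, a ratio of 71.2, and of 21.1 without MuPOX09752 replicate 3. Its replicate 3 stood 8.1 times above the mean of replicates 1 and 2, as that of POX08696, 2 numbers away, stood 4.55 times above.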

How the data were processed

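Messenger RNA was measured by RNA sequencing in 3 MuPOX09752 and 3 Ku70 libraries, grouped by the strain label. For each of 9834 gene IDs the deposited tables give FPKM and, per the file headers, the expected count. The submitters' processing notes list RSEM 1.2.12, Bowtie2 2.1.0, BWA 0.7.10-r789 and DESeq2, with no role given. Genome build, annotation and strandedness were not given in the sources used here, so reads of genes that overlap on opposite strands may not be told apart. The FPKM values were scaled by the authors to gene length and library total; the deposited expected counts are not normalized. Depth was 13099454 to 14115694 counts per library.

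Means, ratios and spreads were computed from FPKM as deposited, and SEs from log2 FPKM with no pseudocount, since every member was above 0 in every library. For the background, expected counts were rounded and tested over the 8807 genes averaging 1 FPKM or more across the 6 libraries, by edgeR 4.0.16 (quasi-likelihood test, TMM factors 0.9733 to 1.016, Benjamini-Hochberg adjusted p under 0.05) in R 4.3.3; all 78 members passed this filter, as their MuPOX09752 level made certain. The fit was tested on simulated data. limma 3.58.1 and DESeq2 1.42.0 were alternatives. With 3 libraries a strain, p-values weigh the strain difference against the spread between these libraries, moderated across genes. That spread may be technical.

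The members and lists were chosen with earlier results of these data known. Genes were named by rule: the 8 highest MuPOX09752 means, the 8 highest ratios, the 4 highest and 4 lowest coefficients of variation in MuPOX09752, the 3 runs of consecutive IDs, and the 3 genes on either side of each limit. Others were named after their values were seen, among them POX00805, POX00532, POX06396, POX00835, POX00837, POX04531, POX04560, POX08683, POX08190 and IDs adjacent to members. No sequences are shown, as the IDs matched no reference entry.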

Additional observations from a re-analysis of the deposited data

How the results depend on the processing

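The rule gave 78 members, and 74 to 89 with each library left out in turn, of which 67 to 76 were among the 78. Scaling by TMM factors or to an equal FPKM sum per library gave 75, medians in place of means 77 (69 shared), edgeR's fitted fold 75, an added 1 FPKM 61, and Ku70 limits of 2 and 0.5 FPKM gave 69 and 92. Requiring the lowest MuPOX09752 library to be at least 8 times the highest Ku70 library gave 43, fewer by construction. The median ratio of 13.1 ran from 12.8 to 13.9 with a library left out and fell to 11.1 with 1 FPKM added to both means, which shrinks ratios of low genes. Replicate 3 was the highest MuPOX09752 library for 34 members, and for 33 and 34 under 2 other scalings. The 34 are 43.6% of members, near the 41.1% of genes tested. It was the lowest for 33 members (42.3%, against 40.4%). Members in runs of consecutive IDs numbered 6, and 10 when 1 ID could lie between; among the 232 genes at least 4-fold higher, 56 lay in runs. Adjacent IDs called and at least 2-fold higher, counted once for each member beside them, came to 48. They came to between 44 and 50 when 1 library was omitted, an alternative chosen after seeing the data.

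Of all genes tested, 5290 were called, from 4454 to 5851 when 1 library was omitted and from 4764 to 5439 under other tests, scalings and filters. Members called higher were 78 with every library left out (78 to 78) and under all alternatives but 2: in limma with a pseudocount of 5 and after quantile normalisation 77 were called, without POX06534 (adjusted p = 0.0542 and 0.0523). With the replicate letter as a block 5282 genes and all 78 members were called. The rule chose the members by this contrast, so the counts of members called follow from it and carry no separate weight. By edgeR with all libraries, 29.8% of the 8807 genes tested were called higher in MuPOX09752. Whether the letters pair the libraries is not given: the correlation of same-letter libraries' deviations from their strain means was -0.017, 0.156 and 0.075, and that of other pairs ran from -0.129 to 0.063. Deviations from a strain mean cancel out within the strain, so values for same-letter and other pairs are not independent. They cannot decide whether the letters pair the libraries. Leaving out MuPOX09752 replicate 3 moved the ratio of 14 members by more than 1.5 times, leaving out MuPOX09752 replicate 1 that of 1 and Ku70 replicate 1 that of 1; these values were computed after seeing the data. Depth limits the weakest members in Ku70, where POX00532 rests on 19 counts in all.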

Other observations

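The same limits applied to IDs above POX09342 met a larger share of genes there: 42 of 333 IDs with at least 1 FPKM in Ku70 (12.6%), against 78 of 8206 (0.951%) in the range described. Genes that fell at least 8-fold, to a MuPOX09752 mean of at least 1 FPKM, numbered 86 in the range from POX00001 to POX09342. Their spread over the MuPOX09752 libraries had a median coefficient of variation of 19.9%, beside 28% for the members, and over the Ku70 libraries 6.31%, beside 13.5%. In 3 of these 86 genes (3.49%) MuPOX09752 replicate 3 was at least 2-fold above the mean of replicates 1 and 2, where 15 of the 78 members (19.2%) were. A high replicate 3 raises the MuPOX09752 mean, which helps a gene into the members and works against its place among the falling genes. The shares in the 2 groups are therefore partly set by the rules that chose them. The groups also differ in level in both strains, and the difference in spread was not tested.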
